A study of Mus musculus with 8 samples.

Results

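The genes described are 10 members of the Notch pathway, Jag1, Dll1, Dll4, Notch1, Notch2, Notch3, Rbpj, Hes1, Hey1 and Heyl, chosen by symbol from the 25239 gene symbols of the count table, where each of the 10 was present. Their RNA was measured in cells labelled as osteoblasts, grown as primary cells from mouse calvaria, the bony cap of the skull. There were 4 libraries labelled KO(OSX-SphK2), a knockout of Sphk2 named together with Osx (osterix, a transcription factor of the osteoblast lineage), and 4 control libraries from littermates, labelled WT. The labels name no promoter construct, no other allele and no age, and give no number of mice per library. The 10 genes were listed with earlier results of this genotype comparison known, that of Jag1 among them, so their genotype values are a description and nothing about the pathway as a whole rests on them.

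Notch receptors are transmembrane proteins that are activated by ligands on a neighbouring cell. Binding of a ligand of the Jagged or Delta-like family leads to cleavage of the receptor by an ADAM protease and then by gamma-secretase, and the freed intracellular domain joins the DNA-binding protein RBPJ to switch on target genes, chiefly repressors of the HES and HEY families. In bone, Notch signalling is known to hold back osteoblast maturation, in macrophages and osteoclast precursors RBPJ modulates inflammatory and osteoclast programmes, and Jag1 on stromal cells is a known signal to blood-forming cells.

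In the libraries numbered 1 to 3, Jag1, Notch1, Rbpj and Hes1 were each lower in all 3 knockout-labelled libraries than in all 3 controls, and Hey1 was higher. The same lack of overlap held for 34.6% of all genes tested (16.5% lower, 18.2% higher). In the libraries numbered 4 this held only for Jag1. With all 8 libraries and genotype alone in the model, 0 of the 7 Notch genes tested passed the threshold, as did 0 of the 12837 genes tested in all, and Dll1, Dll4 and Heyl were too low to test. No label pairs the libraries, and pairing by number was chosen from correlations in these same counts. With same-numbered libraries paired in this way, 2.49% of all genes passed, and of the 7 Jag1 alone, which fell to 0.495 to 0.631 of the control level across the 4 pairs. Notch2, the receptor with the steadiest RNA level, showed no such shift.

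The stretches before the annotated start sites of Jag1, Notch1 and Rbpj are shown because these 3 genes were the ligand, the receptor and the DNA-binding factor that were lower in numbers 1 to 3, and because RBPJ and HES proteins bind known short motifs. RefSeq (build GRCm38.p6) gave such a stretch for 7 of the 10 genes. The stretches are written 5′ to 3′ on the gene's own strand, and only bases outside the exons of GENCODE release M21 are printed. They are chr2:137116645-137116770 on the minus strand for Jag1, chr2:26503825-26504072 on the minus strand for Notch1 and chr5:53590096-53590213 on the plus strand for Rbpj. The Notch1 and Rbpj stretches lie before RefSeq starts but within the GENCODE bounds of their genes, which begin further upstream. Capitals mark the RBPJ core TGGGAA or the HES N-box CACNAG, searched on both strands.
Jag1: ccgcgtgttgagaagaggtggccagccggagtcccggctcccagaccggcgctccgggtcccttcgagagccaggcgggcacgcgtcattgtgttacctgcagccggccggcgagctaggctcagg
Notch1: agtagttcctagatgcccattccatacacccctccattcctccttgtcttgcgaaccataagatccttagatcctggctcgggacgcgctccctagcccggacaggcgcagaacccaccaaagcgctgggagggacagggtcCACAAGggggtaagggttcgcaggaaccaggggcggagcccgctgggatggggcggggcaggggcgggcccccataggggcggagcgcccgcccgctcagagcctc
Rbpj: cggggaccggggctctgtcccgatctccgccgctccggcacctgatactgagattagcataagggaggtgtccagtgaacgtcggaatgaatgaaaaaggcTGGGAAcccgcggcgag

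Over the full 250 bases before the RefSeq start, Rbpj held the RBPJ core at positions −149 and −65, the second on the opposite strand. The window of its other RefSeq start overlaps the first and held the core once, which is the site at −65 again. The core was in 21.6% of the 32851 windows of this length in the RefSeq table. Notch1 held an N-box at position −108, Dll4 at −75, Notch2 at −247 on the opposite strand and Notch3 at −204 and at −159, the last on the opposite strand. The N-box was in 36.7% of all windows. The longer RBPJ form GTGGGAA, which contains the core and was in 5.42% of all windows, was in no window of these 7 genes. The Jag1 window held none of the 3 motifs. A match describes letters only, and a missing match says nothing of the factor.

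Total counts ran from 14347495 to 17928713 in the knockout-labelled libraries and from 14571389 to 19065421 in the controls. Sphk2 itself stood at 69.7 to 131 CPM in knockout-labelled libraries and at 64.2 to 134 CPM in controls, so its count does not check the genotype labels, and directions below are those of the libraries as labelled. CPM is the usual library-scaled read count. The cells were of mixed kinds by their RNA: 12 macrophage markers summed to 29299 to 49679 CPM in knockout-labelled libraries and to 29420 to 38955 CPM in controls, against 4158 to 15700 CPM and 6432 to 16881 CPM for 12 osteoblast markers. The late osteoblast gene Bglap (osteocalcin) stood at 42.3 CPM in knockout-labelled 1, at 0 to 0.489 CPM in the other knockout-labelled libraries and at 0.225 to 0.582 CPM in controls. The libraries numbered 4 stood apart in both genotypes: the 10 osteoclast markers summed to 6748 CPM in knockout-labelled 4 and 10222 CPM in control 4, against 176 to 189 CPM in the other knockout-labelled libraries and 172 to 278 CPM in the other controls. Results are therefore given with and without number 4. In bulk RNA, fewer cells of a type and less RNA per cell cannot be told apart, and which cells held the Notch RNA was not measured.

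Divided by transcript length, Rbpj and the receptors Notch2 and Notch1 were the most abundant of the 10 genes, and Dll1, Dll4 and Heyl were near the limit of detection. Rbpj averaged 34.3 ± 0.695 CPM per kilobase in knockout-labelled libraries and 53.7 ± 16.9 in controls (SD, n = 4 each). Notch2 averaged 26.2 ± 1.68 and 25.5 ± 4.44 CPM per kilobase in knockout-labelled and control libraries. Notch1 followed with 22.5 ± 2.10 CPM per kilobase in knockout-labelled libraries and 27.2 ± 11.3 in controls, and its range overlapped that of Notch2 in both groups. Hes1 came next at 6.87 ± 3.19 CPM per kilobase in knockout-labelled libraries and 10.6 ± 5.996 in controls, and Jag1 at 2.95 ± 1.02 and 5.36 ± 1.65. Hey1 stood at 1.07 ± 0.689 CPM per kilobase in knockout-labelled libraries and 0.197 ± 0.0775 in controls, and Notch3 at 0.914 ± 0.511 and 0.669 ± 0.372, so these 2 neighbours were not separated in knockout-labelled libraries. The lengths are those of the longest principal transcript in GENCODE M21. With the union of all annotated exons as length, Rbpj fell below Notch2, at 14.6 against 25.6 CPM per kilobase in knockout-labelled libraries and 22.9 against 24.9 in controls.

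**Figure D1:**
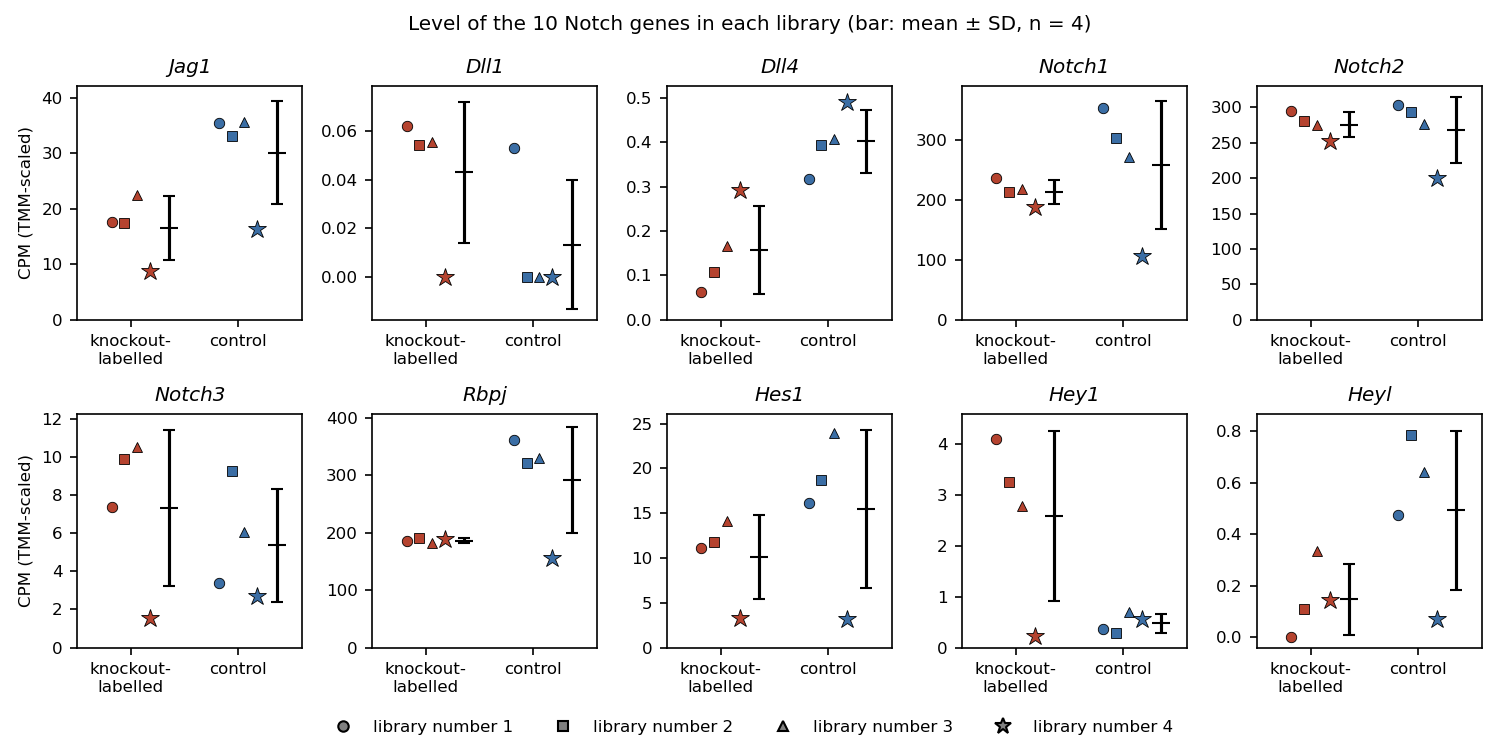
Level of each of the 10 Notch genes in CPM (vertical axes, each panel with its own scale) in the 4 knockout-labelled libraries (red) and the 4 controls (blue); symbols give the library number, stars mark number 4, and black bars show the mean ± SD. Jag1, Notch1, Rbpj and Hes1 were lower in the knockout-labelled libraries numbered 1 to 3 and Hey1 was higher, while number 4 often stood apart from its group.

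Among the ligands, Jag1 was the abundant member and was lower in every pair. Jag1 (ENSMUSG00000027276.7, chromosome 2, 137081456 to 137116644, minus strand, GRCm38) encodes the membrane ligand Jagged 1. It stood at 17.6, 17.4, 22.4 and 8.74 CPM in knockout-labelled libraries 1 to 4, against 35.5, 33.1, 35.6 and 16.3 CPM in controls 1 to 4. Number 4 was low in both groups, and control 4 lay within the knockout-labelled range, so the groups overlapped over 8 libraries but not over numbers 1 to 3. The ratio of knockout-labelled to control was 0.495, 0.528, 0.631 and 0.536 in pairs 1 to 4. On the log2 scale Jag1 differed by −0.86 (SE 0.34, edgeR adjusted p = 0.948 over all genes) with genotype alone, and by −0.87 (SE 0.089, edgeR adjusted p = 0.0328) with the number as a block. The ratio was below 1 in all 4 pairs, as for 13.4% of the genes tested, with 15.4% above 1 in all 4. In numbers 1 to 3 alone, unpaired, it was −0.85 (SE 0.11, edgeR adjusted p = 0.00149). Without the pair numbered 1, 2 or 3 the paired edgeR adjusted p was 0.168, 0.253 and 0.337, at log2 differences of −0.82, −0.85 and −0.95. In each of those fits 0 genes passed over all genes tested. Without pair 4 the edgeR adjusted p of Jag1 was 0.000113, in a fit where 24.2% of all genes passed.

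The Delta-like ligands were barely detected. Dll4, a ligand best known from endothelial cells, had 1, 2, 3 and 4 counts in knockout-labelled libraries 1 to 4, against 6, 7, 7 and 7 counts in controls 1 to 4. The groups did not overlap over the 8 libraries, as for 3.59% of the genes tested (1.27% lower and 2.32% higher in knockout-labelled libraries). Dll4 was under the filter on low counts and so is not among those genes, and no such share was computed for genes with so few reads. Its 214 exon bases shared with the antisense transcript Gm14207 leave its reads uncertain if strand was not used in counting. Dll1, the ligand of segmentation and lymphoid development, had 3 counts in all knockout-labelled libraries together and 1 in all controls. Of 13 endothelial markers, 8 stayed under 1 CPM in every library and Tek was at 0 in each. Their sum was 11.2 to 63.9 CPM in knockout-labelled libraries and 10.5 to 43.2 CPM in controls, with the highest values in number 4. Their part in the Dll4 counts was not tested.

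Among the receptors, Notch1 and Notch2 carried almost the whole level, and they differed in the size of the genotype gap in numbers 1 to 3. Over the 8 libraries their log2 CPM ran closely together (Pearson r = 0.939), and both were lowest in control 4. Notch1 (ENSMUSG00000026923.15, chromosome 2, 26457903 to 26516663, minus strand) stood at 235, 213, 217 and 187 CPM in knockout-labelled libraries 1 to 4, against 353, 302, 271 and 106 CPM in controls 1 to 4. Its knockout-labelled values sat close together, controls 1 to 3 lay above all of them, and control 4 lay below all of them. Over 8 libraries Notch1 differed by −0.28 on the log2 scale (SE 0.33, edgeR adjusted p = 0.9999). For numbers 1 to 3 it was −0.48 (SE 0.099, edgeR adjusted p = 0.0143), and in pair 4 the ratio was 1.77. Notch1 shares 1068 exon bases with the antisense transcript 0610009E02Rik, which had 69 counts over all libraries.

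Notch2, which is known for its role in bone remodelling, moved little. It stood at 294, 280.5, 276 and 252 CPM in knockout-labelled libraries 1 to 4 and at 302, 293, 277 and 199.8 CPM in controls 1 to 4. The groups overlapped with or without number 4, and the ratio was 0.972, 0.957 and 0.996 in pairs 1 to 3 and 1.26 in pair 4. On the log2 scale Notch2 differed by 0.04 (SE 0.15, 95% interval −0.31 to 0.39), and −0.034 in numbers 1 to 3 (95% interval −0.18 to 0.11).

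The balance of the receptors followed from this. Notch1 made up 45.7%, 44.0%, 45.0% and 44.5% of the summed receptor level per kilobase in knockout-labelled libraries 1 to 4, against 55.5%, 51.8%, 50.9% and 35.7% in controls 1 to 4. Notch2 made up 51.6% to 54.2% in knockout-labelled libraries and 43.0% to 61.1% in controls. The larger of the 2 receptors was thus Notch2 in every knockout-labelled library and in control 4, and Notch1 in controls 1 to 3. These shares are free of library scaling, but they depend on the lengths used: with the union of exons, the mean level per kilobase of Notch1 was below that of Notch2 in both groups, at 15.0 against 25.6 in knockout-labelled libraries and 18.1 against 24.9 in controls.

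**Figure D2:**
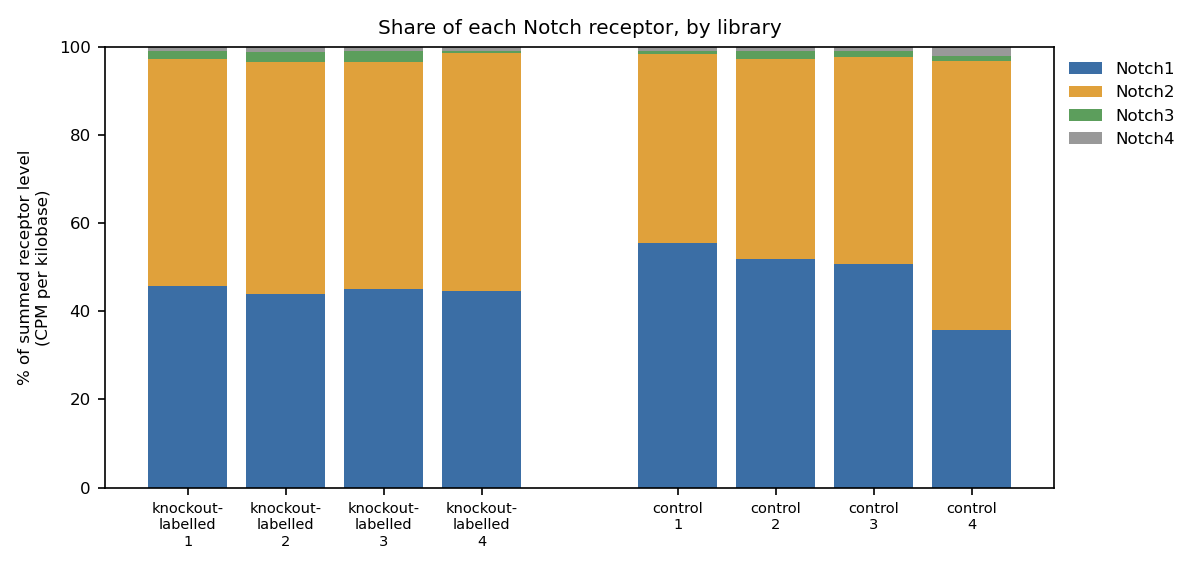
Share of each Notch receptor in the summed receptor level per kilobase of transcript (vertical axis, percent) in each of the 8 libraries, knockout-labelled on the left and controls on the right. Notch1 took 44.0% to 45.7% in the knockout-labelled libraries, against 50.9% to 55.5% in controls 1 to 3 and 35.7% in control 4.

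Notch3, a receptor typical of pericytes and smooth muscle cells, was low and varied widely. It stood at 7.38, 9.89, 10.5 and 1.53 CPM in knockout-labelled libraries 1 to 4, against 3.39, 9.28, 6.06 and 2.73 CPM in controls 1 to 4. The groups overlapped with or without number 4, and the ratio was above 1 in pairs 1 to 3 and 0.561 in pair 4. On the log2 scale Notch3 differed by 0.45 (SE 0.61, edgeR adjusted p = 0.9999). In numbers 1 to 3, unpaired, the difference was 0.58 (SE 0.34, edgeR adjusted p = 0.323). The 11 mural cell markers, apart from Notch3 and Heyl, summed to 1004 to 2433 CPM in knockout-labelled libraries and to 473 to 4217 CPM in controls. The contractile gene Acta2 was the largest. Of the 11, Kcnj8 and Abcc9 stayed under 1 CPM in every library. Rgs5 at 0.146 to 1.57 CPM and Des at 0.116 to 1.58 CPM were little higher, and Myh11 stood at 0.140 to 9.67 CPM. Over all libraries Pdgfrb stood at 31.8 to 233 CPM, Cspg4 at 2.52 to 39.9 CPM and Mcam at 0.839 to 69.6 CPM. The part of such cells in the Notch3 values was not tested.

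Rbpj was the member whose knockout-labelled values were the most even. Rbpj (ENSMUSG00000039191.12, chromosome 5, 53466152 to 53657362, plus strand) stood at 185, 190.4, 182 and 188 CPM in knockout-labelled libraries 1 to 4, against 361, 321, 329.9 and 157 CPM in controls 1 to 4. Controls 1 to 3 lay far above all other libraries, and control 4 was the lowest of the 8. The ratio was 0.513, 0.593 and 0.551 in pairs 1 to 3 and 1.20 in pair 4. On the log2 scale Rbpj differed by −0.65 over 8 libraries (SE 0.24, edgeR adjusted p = 0.897). In numbers 1 to 3 the difference was −0.86 (SE 0.066, edgeR adjusted p = 0.000215). Leaving out control 4 alone gave −0.86 (edgeR adjusted p = 0.0276). GENCODE M21 lists pseudogenes of Rbpj, and it is not stated how reads with several alignments were counted, so its level is uncertain to that extent.

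The target genes went different ways. Hes1 (ENSMUSG00000022528.8, chromosome 16, 30064384 to 30067796, plus strand) encodes a transcriptional repressor and is the classic direct target of Notch. It stood at 11.1, 11.7, 14.2 and 3.35 CPM in knockout-labelled libraries 1 to 4, against 16.1, 18.7, 23.9 and 3.22 CPM in controls 1 to 4. Number 4 was the lowest of both groups, and in numbers 1 to 3 the groups did not overlap. On the log2 scale Hes1 differed by −0.62 over 8 libraries (SE 0.62, edgeR adjusted p = 0.9999). Without number 4 in either group the difference was −0.66 (SE 0.16, edgeR adjusted p = 0.0259).

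Hey1, a related repressor and also a known Notch target, went the opposite way to Hes1 in numbers 1 to 3. Hey1 (ENSMUSG00000040289.8, chromosome 3, 8663359 to 8667256, minus strand) had 66, 60, 50 and 3 counts in knockout-labelled libraries 1 to 4, against 7, 5, 12 and 8 counts in controls 1 to 4. In CPM these were 4.09, 3.26, 2.78 and 0.219 in knockout-labelled libraries and 0.370, 0.281, 0.699 and 0.559 in controls. Knockout-labelled 4 was the lowest library of all, and the other 3 of its group lay above every control. The ratio was 11.05, 11.6 and 3.98 in pairs 1 to 3 and 0.391 in pair 4. On the log2 scale Hey1 differed by 2.43 over 8 libraries (SE 0.75, edgeR adjusted p = 0.695) and by 2.90 in numbers 1 to 3 (SE 0.37, edgeR adjusted p = 0.00149). Over 8 libraries Hey1 passed the filter on low counts through 3 knockout-labelled libraries and 1 control. For the fit of numbers 1 to 3 the filter needed 3 libraries, which the knockout-labelled ones met alone. The adjusted p of Hey1 in that fit is therefore a description only. Relative to Hes1, Hey1 counts were 0.369, 0.278, 0.196 and 0.0652 in knockout-labelled libraries and 0.0230, 0.0151, 0.0292 and 0.174 in controls.

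Heyl, the third repressor and known from smooth muscle cells, was under the filter. It had 0, 2, 6 and 2 counts in knockout-labelled libraries 1 to 4, against 9, 14, 11 and 1 counts in controls 1 to 4. Among numbers 1 to 3 every knockout-labelled library was below every control, and in number 4 both values were at or under 2 counts. Without the filter the log2 difference was −1.70 (SE 0.91, edgeR adjusted p = 0.9998). Intervals and SEs at such counts cover few reads.

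**Figure D3:**
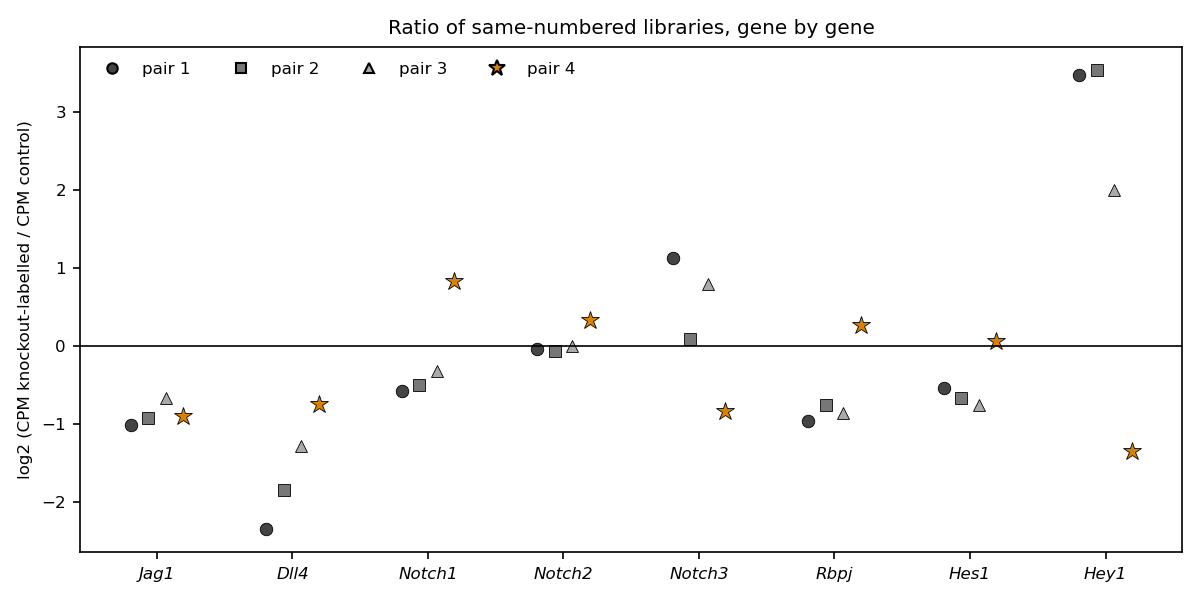
Log2 ratio of CPM, knockout-labelled over control of the same number (vertical axis), for 8 of the Notch genes (horizontal axis), with pairs 1 to 3 in grey and pair 4 as orange stars; Dll1 and Heyl are left out because 1 or more ratios rest on a count of 0. Jag1 and Dll4 were below 0 in each pair, and for Notch1, Notch2, Notch3, Rbpj, Hes1 and Hey1 pair 4 lay on the other side of 0 from pairs 1 to 3.

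Counted together, 3 of the 10 genes (Dll1, Dll4 and Heyl) were under the filter on low counts and 7 were tested. With all 8 libraries and genotype alone, 0 of these 7 passed, as did 0.0% of the 12837 genes tested (0 genes, with 631 at an unadjusted p under 0.05 by edgeR). Of the 7, Jag1, Rbpj and Hey1 had an unadjusted p under 0.05. DESeq2 called 0 of the 7 (smallest for Hey1, DESeq2 adjusted p = 0.0876) and 1.45% of its genes (1.05% higher, 0.405% lower), and limma-voom with quality weights called 4 of the 7 (Jag1, Notch1 and Rbpj lower, Hey1 higher) and 16.1% of genes (8.57% higher, 7.49% lower). With the block, Jag1 alone passed, and 2.49% of all genes did (1.31% higher, 1.18% lower). In numbers 1 to 3 the unpaired model called Jag1, Notch1, Rbpj and Hes1 lower and Hey1 higher, 5 of the 7, beside 14.1% of all genes (7.78% higher, 6.29% lower). With the block as well, Notch3 was also called higher (log2 fold change 0.64, edgeR adjusted p = 0.0455), which made 6 of the 7 beside 24.2% of all genes (12.3% higher, 11.9% lower). In numbers 1 to 3 the groups did not overlap for the same 5 genes, as for 34.6% of all genes tested (18.2% higher, 16.5% lower). Because the genes were listed with such results known, nothing is read from these shares.

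**Figure D4:**
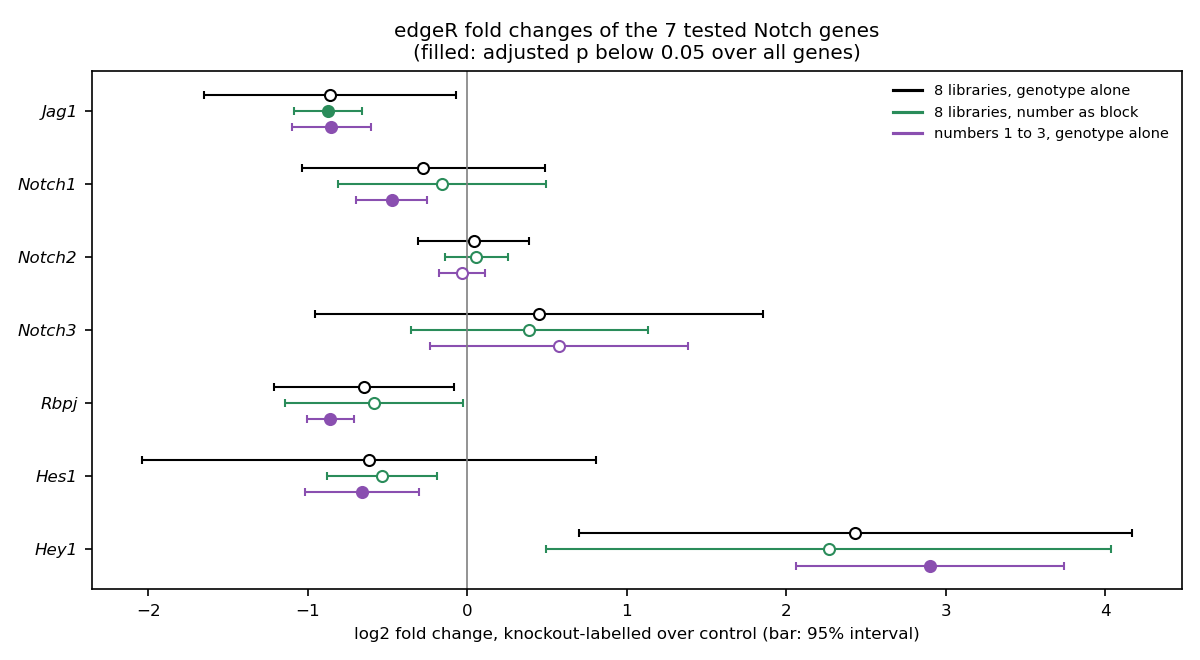
edgeR log2 fold change, knockout-labelled over control (horizontal axis), with its 95% interval for the 7 tested Notch genes, from all 8 libraries with genotype alone (black), all 8 with the number as a block (green) and numbers 1 to 3 with genotype alone (purple). Filled points passed an adjusted p of 0.05 over all genes: none in black, Jag1 in green, and Jag1, Notch1, Rbpj, Hes1 and Hey1 in purple.

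Number 4 differed from numbers 1 to 3 in most of the 10 genes, and not by the same factor in both groups. Jag1 in number 4 was at 0.456 of the mean of numbers 1 to 3 in knockout-labelled libraries and at 0.470 in controls. Hes1 was at 0.272 in knockout-labelled libraries and 0.164 in controls, and Notch3 at 0.165 and 0.437. Rbpj was at 1.01 of that mean in knockout-labelled libraries but at 0.464 in controls, Notch1 at 0.844 and 0.342, and Hey1 at 0.0647 and 1.24. For Rbpj, Notch1, Hes1 and Hey1 the gap between the genotypes in numbers 1 to 3 was therefore absent or turned round in number 4. With 1 library per genotype there, this was not tested. The same libraries held the osteoclast markers given above, and the part of those cells was not tested.

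The rest of the pathway was read from a list of 61 other genes, of which 52 were tested and 9 were under the filter. With all 8 libraries 0 rose and 0 fell, with or without the block, beside 0.0% and 2.49% of all genes. The median log2 fold change of the 52 was 0.0058, against −0.016 over all genes tested. Nearest to the threshold without the block were Rita1, a nuclear export factor for RBPJ (−0.44, SE 0.16), Tle1, a Groucho-type corepressor (−0.37, SE 0.17), and the Deltex ubiquitin ligase Dtx2 (−0.30, SE 0.15) on the lower side. On the higher side were the Neuralized ubiquitin ligase Neurl1b (0.81, SE 0.40), Dtx3l (0.16, SE 0.11) and the gamma-secretase subunit Aph1c (0.44, SE 0.31). Their edgeR adjusted p were 0.835 for Rita1 and 0.9999 for each of the others.

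In numbers 1 to 3, edgeR without the block called 2 of the 52 genes higher and 3 lower, beside 7.78% and 6.29% of all genes. These 5 were named after their values were seen. Maml3, a Mastermind coactivator that binds the RBPJ complex, fell by 0.88 on the log2 scale (SE 0.098, adjusted p = 0.000743). It stood at 15.9, 18.4, 18.8 and 5.46 CPM in knockout-labelled libraries 1 to 4, against 35.1, 30.02, 33.1 and 3.78 CPM in controls 1 to 4. As with Rbpj, controls 1 to 3 lay above all other libraries. Tle1 fell by 0.45 (SE 0.12, edgeR adjusted p = 0.0367) and Tle3, another Groucho-type corepressor, fell by 0.26 (SE 0.059, adjusted p = 0.0198).

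The 2 that rose in numbers 1 to 3 act on ligands and receptors. Neurl1b rose by 1.30 on the log2 scale (SE 0.26, edgeR adjusted p = 0.0115) and stood at 8.19, 6.25, 5.83 and 6.85 CPM in knockout-labelled libraries, against 1.91, 3.60, 2.74 and 7.27 CPM in controls. Aph1c rose by 0.72 (SE 0.091, adjusted p = 0.00136) and stood at 41.2, 35.2, 39.6 and 52.0 CPM in knockout-labelled libraries, against 24.98, 21.8, 23.6 and 53.2 CPM in controls. Number 4 did not separate the genotypes for either gene. Aph1b and Aph1c are closely related copies in mouse, so reads may be split between them uncertainly. Aph1b stood at 19.8 to 42.4 CPM in knockout-labelled libraries and 13.9 to 38.8 CPM in controls.

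By role, the genes past the threshold in numbers 1 to 3 without the block stand beside 7.78% higher and 6.29% lower over all genes. Each role holds few genes, so nothing is read from these counts. Of 10 proteases of receptor cleavage, 1 rose (Aph1c) and 0 fell. Adam10, which makes the first activating cut, stood at 191 to 394 CPM in knockout-labelled libraries and at 169.6 to 416 CPM in controls. Of 5 glycosyltransferases of the receptors and 1 further receptor, Notch4, 0 passed. Of 13 tested genes of endocytosis and ubiquitin transfer 1 rose, of 8 coactivators 1 fell, and of 12 corepressors 2 fell. With the block in numbers 1 to 3, 9 of the 52 genes passed, beside 24.2% of all genes: Aph1c, Neurl1b and Dtx3l rose, and Maml3 and the corepressors Ctbp2, Tle1, Tle2, Tle3 and Bend6 fell (Ctbp2, Tle2 and Bend6 are also named after their values were seen). Over all 8 libraries 0 of the 12 corepressors passed, with or without the block. Among the other target genes, Hes5 was at 0 in each library and Nrarp, a feedback inhibitor of Notch, stayed under 0.4 CPM. Of that group, Hes6 alone was tested, at 14.3 to 24.7 CPM in knockout-labelled libraries and 11.8 to 25.6 CPM in controls, and it did not pass.

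**Figure D5:**
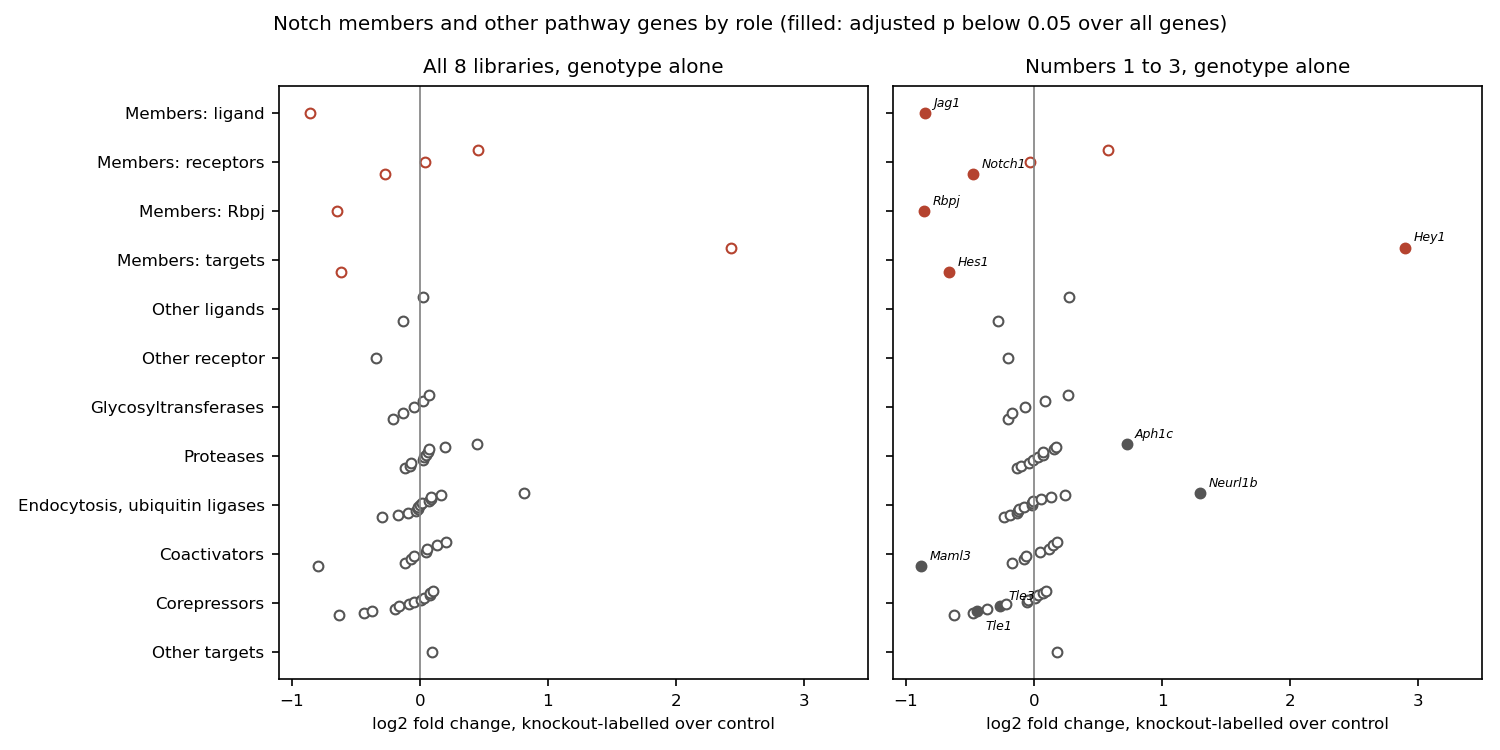
Log2 fold change, knockout-labelled over control (horizontal axis), of the 7 tested Notch members (red) and the 52 other pathway genes tested (grey), by role (vertical axis), from all 8 libraries on the left and from numbers 1 to 3 on the right, with genotype alone in both. Filled points passed an adjusted p of 0.05 over all genes: none on the left, and on the right 5 members plus Aph1c, Neurl1b, Maml3, Tle1 and Tle3.

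The genes whose log2 CPM followed a member most closely over the 8 libraries were taken as the 3 with the highest Pearson r among all genes tested. For Jag1 they were the leukocyte cytoskeletal protein Lsp1 (r = 0.974), the cardiac troponin Tnnt2 (0.969) and the transcription factor Klf4 (0.966). For Rbpj they were the sphingomyelin synthase Sgms1 (0.987), Klra2 of the Ly49 receptor family (0.987) and the collagenase Mmp8 (0.986). For Hes1 they were the small GTPase Rhob (0.992), the junction protein Jam2 (0.991) and Tmem248 (0.990). For Hey1 they were St6galnac4 (0.972), Treml2 (0.970) and Gbp8 (0.970). These values describe 8 libraries, and the difference of number 4 from the rest enters each of them.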

How the data were processed

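The authors deposited whole-number read counts per gene symbol for 8 libraries of polyadenylated RNA; GRCm38 (mm10), the aligner STAR 2.7.11b and the counter featureCounts 2 are named per the submitters' processing notes. The gene annotation, the strand setting and the treatment of reads with several alignments are not given in the sources used here. Groups and numbers came from the sample titles, and columns were matched through the library names. The members and lists were chosen with earlier results of these data known.

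Counts were analysed with edgeR 4.0.16 in R 4.3.3: filterByExpr (minimum count 10, met by 0.574 CPM in at least 4 libraries), TMM scaling, and the robust quasi-likelihood F test of genotype alone, with Benjamini-Hochberg adjustment over all genes tested and a threshold of 0.05. Standard errors are the log2 fold change divided by the square root of F. CPM used TMM-scaled library sizes, and log2 CPM a prior count of 2. The code was tested on simulated counts. Libraries of 1 group differed beyond sampling noise (chi-square per degree of freedom 8.56 to 307), so each counted as a sample. No label says that libraries came from separate cultures or mice, so p-values reflect only the variation among libraries, part of which may be technical.

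After removal of group means, the correlation across genes between libraries of one number was 0.460 to 0.829 over 8 libraries. Unlike numbers among 1 to 3 gave 0.416 to 0.572 there, knockout-labelled 1 being nearer to control 2 (0.511) than to control 1 (0.460), and number 4 against the others −0.757 to −0.569, so these values largely set number 4 apart. Over numbers 1 to 3 alone, like numbers gave 0.161 to 0.376 and unlike numbers −0.255 to −0.0234. Each like-number value exceeded 0.1, the minimum set, and on this ground, not a label, numbers were treated as pairs. Alternatives were DESeq2 1.42.0, limma 3.58.1, other scalings, no filter, the block and left-out libraries. The rule on named genes took all members, the other pathway genes past the threshold or otherwise 3 per direction with the smallest p, and the 3 genes most like a member.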

Additional observations from a re-analysis of the deposited data

Results flagged for a closer look

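Jag1 in control 4 stood at 16.3 CPM, far below the 33.1 to 35.6 CPM of the other controls (gap 0.869 of the group's range, above the critical value of 0.829 for 4 samples). Dll1 in knockout-labelled 4 was at 0 CPM, against 0.0543 to 0.0620 CPM in the other knockout-labelled libraries, and in control 1 it was at 0.0529 CPM, against 0 in the other controls. Each Dll1 value above 0 is a single read. These were 3 of 20 gene and group sets examined. Chance alone marks about 1 in 20 sets of continuous values, a rate that does not hold for the Dll1 sets of 0 or 1 read.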

How the results depend on the processing

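Against 0 genes past the threshold over all genes, DESeq2 called 176, limma-voom with quality weights 2061, the replicate block 319, numbers 1 to 3 unpaired 1817 and the replicate block without number 4 3132; leaving out 1 library or 1 number otherwise gave 0 to 38, the highest without control 4 and 24 without knockout-labelled 4. For the 10 Notch genes the counts were 4 with quality weights, 1 with the block, 5 in numbers 1 to 3, 6 with the block there and 0 to 1 with 1 library left out, the 1 being Rbpj without control 4. For the other pathway genes they were 9, 0, 5, 9 and 0. The block moved the count over all genes by more than 1.5 times, and of the members it changed the call of Jag1 alone. With any 1 library left out, Jag1 kept a negative log2 fold change (−1.07 to −0.65), as did Rbpj (−0.86 to −0.53), Hes1 (−0.95 to −0.33) and Notch1 (−0.54 to −0.088), and Hey1 kept a positive one (2.13 to 2.81). Notch2 turned from 0.04 to −0.019 with quality weights, −0.034 in numbers 1 to 3, −0.033 with the block there and −0.081 without control 4, within −0.081 to 0.10 over all left-out libraries. The causes were not tested. Levels per kilobase of Rbpj and Notch1 moved with the length used, an alternative chosen after seeing the data. Depth limits Dll1, Dll4 and Heyl, whose highest library had 14 counts.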
